A study of Macaca mulatta with 20 samples.

Results

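The interferon response was followed through 9 antiviral genes in RNA from 5 rhesus macaque sources. The genes were IFIT1, IFIT2, IFIT3, MX1, MX2, OAS1, OAS2, ISG15 and IFI44. A probe set, the group of short probes that together give 1 value for a transcript, was taken as a reading of one of them when its only gene symbol in the array annotation was that gene. This gave 23 of 52865 rhesus probe sets and 15 of 54675 human ones, and every one of them is accounted for here. Exactly 1 probe set read IFIT1, MX1 and ISG15 on the rhesus arrays, while IFIT2 had 6, OAS1 had 5, IFIT3 had 3, and MX2, OAS2 and IFI44 had 2 each. On the human arrays IFIT1, MX1, MX2 and ISG15 had 1 probe set each, OAS2 had 3, and IFIT2, IFIT3, OAS1 and IFI44 had 2 each.

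The sources were cerebral cortex, pancreas, testis and thymus, and a cell line of immortalized fibroblasts, the cells that lay down connective tissue. Aliquots of the RNA of each source were hybridized to 2 Rhesus Macaque Genome Arrays, which were designed for the rhesus genome. Others were hybridized to 2 Human Genome U133 Plus 2.0 arrays, which were designed for the human genome and whose probes can mismatch rhesus RNA. There were 20 arrays in all, 10 of each type. The labels number the arrays of a source as technical replicates, give no animal, sex, age, infection or treatment for any source, and name no interferon treatment, so p-values here reflect array-to-array spread for 5 RNA preparations and not differences between animals. The fibroblasts are 1 line, and how they were immortalized is not given in the sources used here. In tissue RNA, fewer cells of a type and less RNA per cell cannot be told apart.

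Interferons are secreted when a cell senses viral nucleic acid, and they bind receptors on the same and on neighbouring cells. The receptors activate kinases of the JAK family, and transcription factors then switch on a set of interferon-stimulated genes. IFIT proteins bind foreign RNA and block its translation, MX proteins are large GTPases that trap viral components, OAS enzymes sense double-stranded RNA and make short oligoadenylates that switch on RNase L, and ISG15 is a ubiquitin-like protein that is attached to other proteins. Many of these genes are also transcribed at a basal level in uninfected tissue. In the RefSeq gene order of the rhesus assembly T2T-MMU8v2.0, IFIT2 and IFIT3 are neighbours and IFIT1 lies in the same cluster, MX1 stands next to MX2, OAS1 stands next to OAS3, and OAS2 lies on the same chromosome between CFAP73 and DTX1.

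The values are log2 expression values, so 1 unit is a doubling of signal intensity. Where a gene had several probe sets, the brightest on average over the arrays of a type stands for it, and all the other probe sets are described further on. The lower end of the scale was taken from controls for bacterial transcripts that were never added to the RNA. Their highest source mean was 3.56 for rhesus and 3.22 for human arrays. A level at or below that mark could not be told from no transcript, and a difference that has such a level on 1 side is not an exact fold. Each source was compared with the average of the remaining 4 in limma over all probe sets, and a difference was called if it had a size of at least 1 and an adjusted p (Benjamini-Hochberg) below 0.05.

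On the rhesus arrays the 9 genes did not share 1 order of sources. IFIT3, MX1, MX2, ISG15 and IFI44 had their highest level in testis, OAS1 and OAS2 had it in thymus, IFIT1 in cortex and IFIT2 in fibroblasts. The lowest level was in cortex for IFIT3, OAS1, ISG15 and IFI44, in thymus for IFIT1, in fibroblasts for MX1 and in pancreas for IFIT2. MX2 and OAS2 were below the control level in 4 and 3 sources, which cannot be ranked. On the human arrays IFIT1 and IFI44 repeated their rhesus profiles, and the other 7 genes had no called difference.

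**Figure D1:**
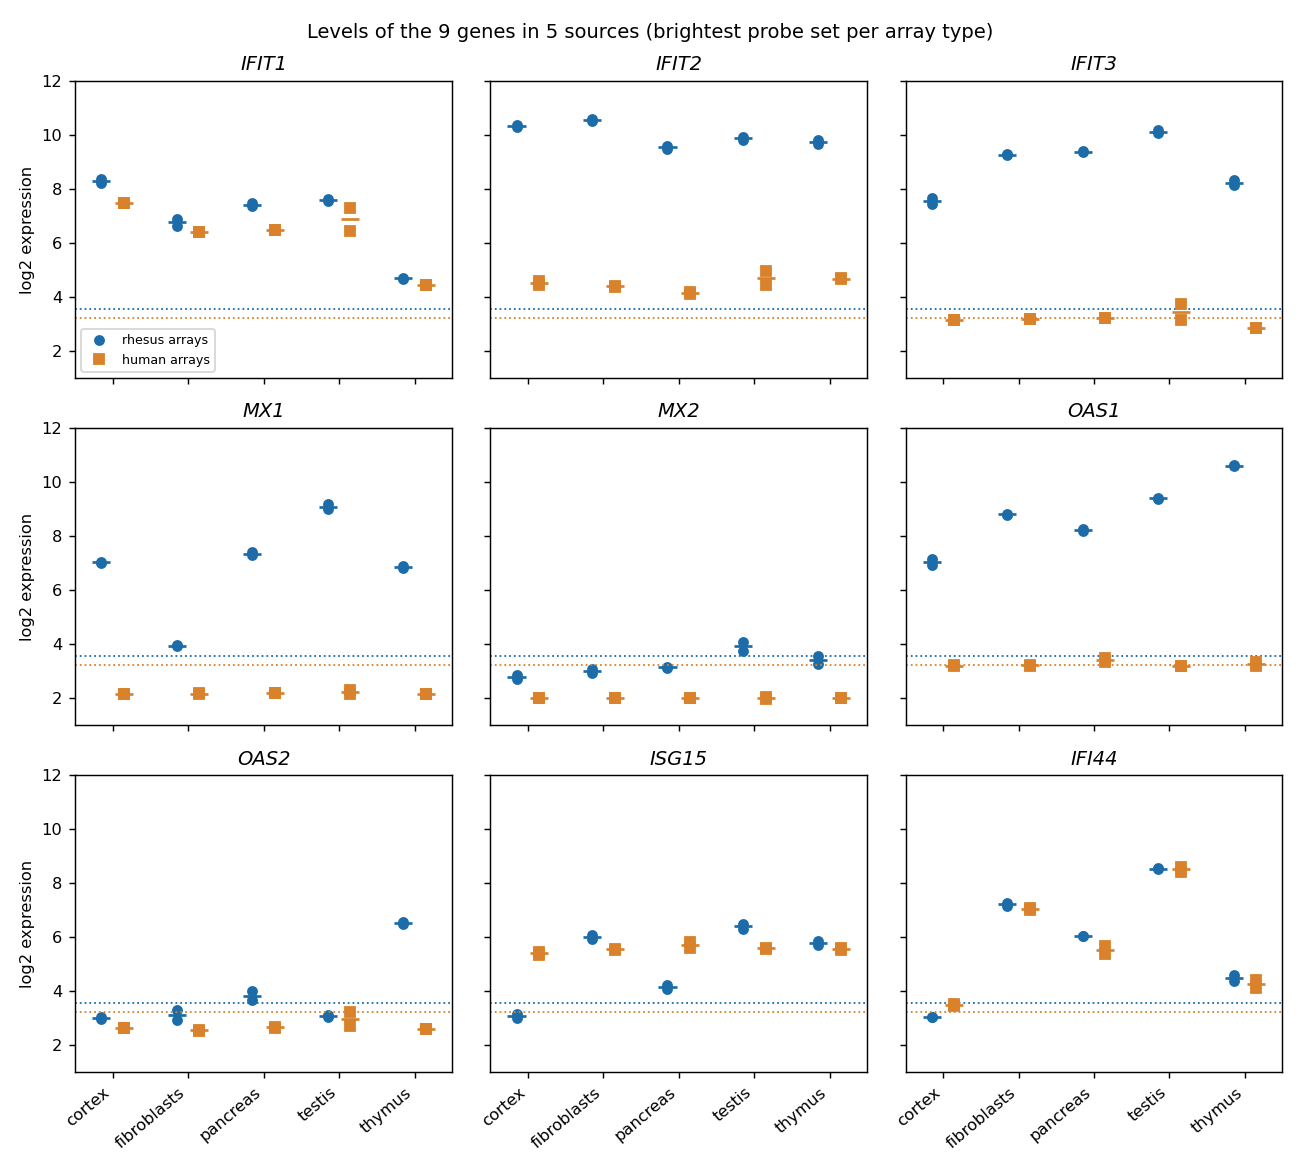
Levels of the 9 genes (log2 expression, vertical axis) on each array of the 5 sources (horizontal axis), with rhesus arrays as circles and human arrays as squares, short lines at the mean of 2 arrays and dotted lines at the control levels of 3.56 (rhesus) and 3.22 (human). IFIT1 and IFI44 have like profiles on both array types, while MX1, OAS1, OAS2 and ISG15 vary over more than 3 units on the rhesus arrays and lie in a flat band on the human arrays.

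IFIT1 was highest in cortex and lowest in thymus on both array types. On the rhesus arrays its levels were 8.39 and 8.22 in cortex, 7.56 and 7.62 in testis, 7.35 and 7.49 in pancreas, 6.65 and 6.89 in fibroblasts, and 4.67 and 4.70 in thymus. The human arrays read 7.49 and 7.50 in cortex, 7.29 and 6.45 in testis, 6.50 and 6.49 in pancreas, 6.41 and 6.40 in fibroblasts, and 4.45 and 4.44 in thymus. The thymus arrays did not overlap those of any other source on either array type. Against the other sources the cortex level was 1.69 ± 0.08 higher on the rhesus arrays (SE, n = 2 arrays per source, limma adjusted p = 4.04e-06) and 1.44 ± 0.19 higher on the human arrays (limma adjusted p = 0.00194). The thymus level was lower than the other sources, by -2.83 ± 0.08 on the rhesus arrays (limma adjusted p = 4.7e-07) and by -2.38 ± 0.19 on the human arrays (limma adjusted p = 0.000205). In the order of levels, only the step between fibroblasts and thymus was called, at 2.08 on rhesus and 1.97 on human arrays. The steps of cortex over testis (0.72), testis over pancreas (0.17) and pancreas over fibroblasts (0.65) on the rhesus arrays were below the size limit of 1, and the middle one also missed the p limit (limma adjusted p = 0.167).

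IFIT2 and IFIT3 form complexes with IFIT1, and on the rhesus arrays the levels of their brightest probe sets did not follow those of IFIT1. Over the 5 source means there, Pearson's r was 0.27 between IFIT1 and IFIT2 and 0.11 between IFIT1 and IFIT3. On the human arrays, where IFIT2 and IFIT3 were low and flat, it was -0.25 and 0.76. These are descriptions over 5 points that share arrays. IFIT2 had levels of 10.6 and 10.5 in fibroblasts, 10.3 and 10.4 in cortex, 9.83 and 9.93 in testis, 9.67 and 9.81 in thymus, and 9.61 and 9.48 in pancreas on the rhesus arrays. Its source means spanned 1.02, and no source was called for this probe set. IFIT3 had 10.2 and 10.1 in testis, 9.36 and 9.39 in pancreas, 9.30 and 9.25 in fibroblasts, 8.13 and 8.33 in thymus, and 7.45 and 7.68 in cortex. Both cortex arrays lay below every other array and both testis arrays above. IFIT3 was lower in cortex than the other sources by -1.69 ± 0.07 (SE, limma adjusted p = 3.21e-06) and higher in testis by 1.52 ± 0.07 (limma adjusted p = 8.89e-06). Among its neighbouring sources only fibroblasts over thymus was called (1.04), and pancreas and fibroblasts differed by 0.10 ± 0.09.

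The human arrays gave low and flat levels for both genes. IFIT2 lay between 4.12 in pancreas and 4.98 in testis over the 10 arrays, and IFIT3 between 2.83 in thymus and 3.74 in testis. The IFIT3 mean was above the control level in testis only, where 1 array read 3.14 and the other 3.74.

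MX1, which blocks influenza and related viruses, was highest in testis and lowest in fibroblasts on the rhesus arrays. Its levels were 9.17 and 9.01 in testis, 7.30 and 7.41 in pancreas, 7.05 and 7.02 in cortex, 6.80 and 6.88 in thymus, and 3.94 and 3.95 in fibroblasts. The testis and the fibroblast arrays stood apart from all the others, on opposite sides. Testis was 2.80 ± 0.05 above the other sources (SE, limma adjusted p = 1.79e-07). Fibroblasts were lower than the other sources by -3.63 ± 0.05 (limma adjusted p = 4.43e-08), at a level just above that of the controls. The step from testis to pancreas (1.73) and that from thymus to fibroblasts (2.90) were called, and cortex and thymus differed by 0.19 ± 0.07 (limma adjusted p = 0.0619).

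MX2, which restricts lentiviruses, was near the control level. Its brighter rhesus probe set read 4.09 and 3.74 in testis, 3.54 and 3.26 in thymus, 3.15 and 3.13 in pancreas, 3.06 and 2.95 in fibroblasts, and 2.72 and 2.86 in cortex. Only the testis mean was above the control level, and no source and no neighbouring step was called. Over the 10 human arrays MX1 ranged from 2.14 to 2.29 and MX2 from 1.98 to 2.04, below the control level in every source.

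OAS1 was high in thymus and low in cortex on the rhesus arrays. It read 10.6 and 10.6 in thymus, 9.38 and 9.42 in testis, 8.78 and 8.83 in fibroblasts, 8.26 and 8.21 in pancreas, and 6.92 and 7.14 in cortex. No 2 sources overlapped. The difference from the other sources was 2.24 ± 0.06 in thymus (SE, limma adjusted p = 3.39e-07) and -2.23 ± 0.06 in cortex (limma adjusted p = 2.45e-07). The steps of thymus over testis and of pancreas over cortex were called, at 1.21 and 1.20, and the middle steps of 0.59 and 0.58 were below the size limit. When the 5 probe sets of OAS1 were averaged, the thymus difference was 0.96 and was no longer called.

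OAS2 was detected above the control level in thymus and, barely, in pancreas. Its brighter rhesus probe set read 6.57 and 6.48 in thymus, 4.00 and 3.69 in pancreas, 3.29 and 2.94 in fibroblasts, 3.12 and 3.04 in testis, and 2.98 and 3.03 in cortex. The thymus arrays stood apart from all the others, and those of fibroblasts, testis and cortex overlapped or nearly touched. Against the other sources thymus was 3.26 ± 0.11 higher (SE, limma adjusted p = 1.22e-06), and thymus exceeded pancreas, the next source, by 2.68 ± 0.14. Cortex (-1.13 ± 0.11) and testis (-1.04 ± 0.11) were also called lower than the mean of the other 4 sources, a mean that holds the high thymus level. Among themselves fibroblasts exceeded testis by 0.03 ± 0.14 and testis exceeded cortex by 0.08 ± 0.14, with limma adjusted p of 0.851 and 0.758. The testis call was lost without replicate 1 of fibroblasts (-0.995) or replicate 2 of testis (-0.999), both just short of the size limit, and also after quantile normalization (-0.92) or when its probe sets were averaged (-0.72). The cortex call was lost when spiked controls were subtracted (-0.89).

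Human array levels of OAS1 lay between 3.18 and 3.47 and those of OAS2 between 2.54 and 3.23. The OAS2 mean was below the control level in every source. No source was called for either gene.

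ISG15 was low in cortex and pancreas and higher elsewhere on the rhesus arrays. Its levels were 6.49 and 6.33 in testis, 5.94 and 6.07 in fibroblasts, 5.72 and 5.85 in thymus, 4.08 and 4.22 in pancreas, and 3.02 and 3.16 in cortex, the last of these below the control level. The cortex arrays were the lowest and the pancreas arrays the next lowest. Testis was 1.65 ± 0.07 above the other sources (SE, limma adjusted p = 5.98e-06) and fibroblasts 1.15 ± 0.07 above (limma adjusted p = 2.58e-05). Cortex differed by -2.50 ± 0.07 (limma adjusted p = 4.97e-07) and pancreas by -1.17 ± 0.07 (limma adjusted p = 2.31e-05). Steps were called for thymus over pancreas (1.64) and pancreas over cortex (1.06), and fibroblasts and thymus differed by 0.22 ± 0.09 (limma adjusted p = 0.116). Without both pancreas arrays the fibroblast difference was 0.91 and below the size limit. After quantile normalization the pancreas difference was -0.95 and was no longer called. ISG15 was well above the control level on the human arrays and read between 5.35 in cortex and 5.84 in pancreas over the 10 arrays. Its source means spanned 0.31 there, against 3.32 on the rhesus arrays. In cortex, where the rhesus level was below that of the controls, the human mean was 5.41. Whether the flat human signal came from ISG15 transcript was not tested.

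IFI44 is another gene that interferon induces. Its brighter probe set separated all 5 sources on the rhesus arrays. It read 8.53 and 8.55 in testis, 7.16 and 7.28 in fibroblasts, 6.04 and 6.06 in pancreas, 4.60 and 4.39 in thymus, and 3.05 and 3.04 in cortex. Every neighbouring step was called, from 1.17 for fibroblasts over pancreas to 1.55 for pancreas over thymus. The human arrays read 8.43 and 8.60 in testis, 7.07 and 6.99 in fibroblasts, 5.68 and 5.37 in pancreas, 4.41 and 4.14 in thymus, and 3.44 and 3.53 in cortex. The order was the same as on the rhesus arrays, and each step but the lowest, thymus over cortex (0.79 ± 0.13), was called. Testis was 3.34 ± 0.06 above the other sources on the rhesus arrays (SE, limma adjusted p = 1.55e-07) and 3.44 ± 0.11 above them on the human arrays (limma adjusted p = 5.27e-06). Cortex differed by -3.53 ± 0.06 on the rhesus arrays, where its level was below that of the controls, and by -2.85 ± 0.11 on the human arrays. Fibroblasts were higher by 1.69 and 1.58 and thymus differed by -1.72 and -1.87 on the rhesus and human arrays, all called. When the 2 human probe sets of IFI44 were averaged, the fibroblast (0.80) and thymus (-0.96) calls were lost on that array type.

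Counted by source, the rhesus arrays called 19 of the 45 combinations of gene and source, and the human arrays called 6. All 6 were called in the same direction on the rhesus arrays, and they belonged to IFIT1 and IFI44. In cortex 1 gene of 9 was called higher and 5 lower on the rhesus arrays, where 12.7% of all probe sets were called higher and 14.4% lower. In testis 4 were higher and 1 lower, against a background of 12.8% and 7.69%. In fibroblasts 2 were higher and 1 lower (background 11.2% and 12.5%), in thymus 2 were higher and 2 lower (14.7% and 12%), and in pancreas 0 were higher and 1 lower (6.97% and 17.6%). Read against these shares, the shares of the 9 genes called lower in cortex and higher in testis were above those of all probe sets, and the counts elsewhere were small. Over all genes read by their brightest probe set, as the 9 were, the shares were 16.6% higher and 21.1% lower in cortex and 16.1% higher and 11.2% lower in testis. The median difference over the 9 genes was -1.13 in cortex and 0.83 in testis, against -0.12 and -0.08 over all 14132 genes.

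Among the human arrays 1 gene was higher and 1 lower in cortex, where 7.72% of all probe sets were called higher and 6.47% lower. Fibroblasts and testis each had 1 gene higher and 0 lower, in both cases IFI44, with backgrounds of 7.12% and 5.58% in fibroblasts and 6.05% and 3.59% in testis. Thymus had 0 higher and 2 lower (7.46% and 6.12%), and pancreas had 0 in either direction (3.1% and 10.7%). All probe sets counted, the 23 on the rhesus arrays gave 7 higher and 1 lower in testis, 0 and 4 in pancreas, 1 and 10 in cortex, 4 and 3 in thymus, and 4 and 2 in fibroblasts. The 15 on the human arrays gave the same counts as the genes.

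**Figure D2:**
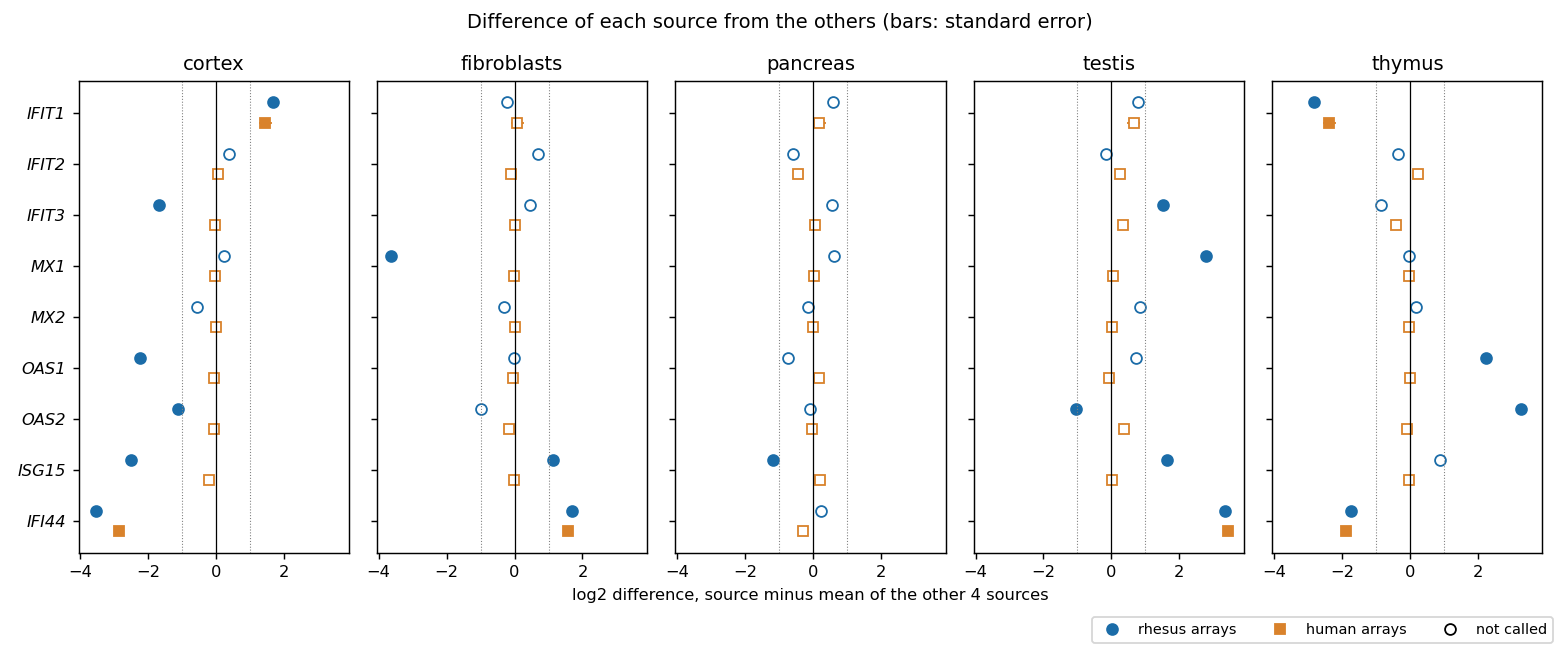
Source minus mean of the other 4 sources (log2 difference, horizontal axis) for the 9 genes, with rhesus arrays as circles, human arrays as squares, bars at the standard error, filled points for called differences and dotted lines at -1 and 1. Filled squares appear for IFIT1 and IFI44 only, 6 in all, against 19 filled circles.

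Across the order of levels, 13 of 36 neighbouring steps were called with rhesus arrays and 4 of 36 with human ones. Each step joins sources that stand next to each other in that gene's own order. A share of such steps over all genes was not computed. The shares that follow are for fixed pairs of sources over all probe sets, which is an unlike measure. For any pair of sources, between 21.6% (testis and thymus) and 32% (cortex and thymus) of all rhesus probe sets were called in either direction. The shares of the other pairs with cortex were 27.6% for fibroblasts, 27.4% for pancreas and 28.5% for testis. Fibroblasts differed in 24% from pancreas, 25.4% from testis and 26.4% from thymus, and pancreas in 28.2% from testis and 29.8% from thymus. The human shares were lower throughout, from 10.5% for testis and thymus to 17.3% for cortex and thymus. They were 16.1% for cortex and fibroblasts, 15.6% for cortex and pancreas, 14.8% for cortex and testis, and 14.7% for fibroblasts and pancreas. The last pairs gave 13.2% for fibroblasts and testis, 14.2% for fibroblasts and thymus, 14.7% for pancreas and testis, and 16.2% for pancreas and thymus.

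The difference between array types was tested directly as a contrast of the source differences, rhesus minus human, over 11956 genes that both array types read. It was called for 13 of the 45 combinations of gene and source, and in all 13 the rhesus arrays gave the difference of larger size. MX1 led with -3.62 ± 0.08 in fibroblasts (SE, limma adjusted p = 4.62e-12) and 2.75 ± 0.08 in testis (limma adjusted p = 4.39e-11). OAS2 differed by 3.35 ± 0.17 in thymus, where its difference from the other sources was 3.26 on rhesus arrays and -0.09 on human arrays. OAS1 differed by 2.24 ± 0.09 in thymus and -2.17 ± 0.09 in cortex, and ISG15 by -2.30 ± 0.11 in cortex. When the probe sets of a gene were averaged, the OAS1 contrasts were 0.96 in thymus and -0.97 in cortex and that of OAS2 in testis was -0.77, none of them called. IFI44 was then called in cortex (-1.42), fibroblasts (1.005) and testis (1.08). By source, 4 of the 9 genes were called in testis and 4 in cortex, where 13.7% and 20.3% of all genes tested were. There were 2 in thymus (17.5%), 2 in fibroblasts (16.8%) and 1 in pancreas (21.8%). A constant offset of either table cancels in this contrast, but other effects of separate normalization do not.

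With the brightest probe sets, no such difference was called for IFIT1, IFIT2, MX2 or IFI44. For IFIT1 the rhesus minus human values ran from -0.46 to 0.39, each ± 0.21. For IFI44 they ran from -0.68 in cortex to 0.53 in pancreas, each ± 0.13, and these 2 extremes passed the p limit but not the size limit (limma adjusted p = 0.000912 and 0.00453). Over the 5 source means, Pearson's r between the array types was 0.99 for both IFIT1 and IFI44. It was 0.70 for IFIT3, 0.59 for MX1, 0.27 for ISG15, 0.14 for MX2, 0.11 for IFIT2, -0.03 for OAS1 and -0.27 for OAS2. These are descriptions over 5 points, and for MX1 the human means spanned only 0.07.

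Probe sets of the same gene did not always give the same profile. Between the rhesus probe sets of IFI44, OAS2 and IFIT3, the lowest r was 0.97, 0.95 and 0.86 over the 5 source means. From pancreas to testis, however, the brighter OAS2 probe set fell from 3.84 to 3.08 and the dimmer rose from 2.27 to 2.93. Of these levels only the 3.84 was above the control level. For IFIT3 the pancreas difference from the other sources was 0.57, -0.07 and -0.62 from the brightest to the dimmest probe set, none called. The 2 OAS2 probe sets had thymus means of 6.52 and 6.57, and the dimmer one had 2.93 or less in every other source. The dimmer IFI44 probe set read 7.61 and 7.67 in testis and 7.37 and 7.37 in fibroblasts. Its step between these sources was 0.26 ± 0.17, against 1.32 for the brighter one. The cortex arrays of the dimmer probe set, at 3.81 and 4.34, overlapped those of thymus, at 4.17 and 4.32. The name of this dimmer probe set carries the letter x, which marks a probe set whose probes can also match other transcripts.

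OAS1 was less uniform. Its next brightest probe set read 8.04 and 7.93 in thymus, 6.80 and 6.68 in fibroblasts, 5.85 and 5.75 in testis, 3.94 and 4.34 in pancreas, and 4.38 and 3.82 in cortex, so thymus was again highest. The one after it stayed between 4.26 and 5.26 over the 10 arrays. The last pair had source means between 2.82 and 3.39 and between 2.18 and 2.83, all below the control level. The lowest r between OAS1 probe sets was -0.45.

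The 6 IFIT2 probe sets put the highest level in 3 different sources, with a lowest r of -0.65. Those ending in at, s_at and x_at share 1 target name, and all 3 were highest in fibroblasts (8.29, 9.15 and 9.45) and lowest in testis (6.97, 8.02 and 8.45). Another was highest in testis (8.01) and lowest in cortex (6.29), where it was called lower by -1.35 ± 0.11 (SE, limma adjusted p = 7.08e-05). The dimmest had the widest spread between arrays of the same source, with 3.24 and 4.47 in pancreas, where it was called lower by -1.72 ± 0.33 (SE, limma adjusted p = 0.0037). The other IFIT3 probe sets were highest in testis (7.35 and 7.18) and lowest in cortex (5.66 and 4.70), as the brightest was. The dimmer MX2 probe set lay between 2.49 and 2.74 over the 10 arrays.

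**Figure D3:**
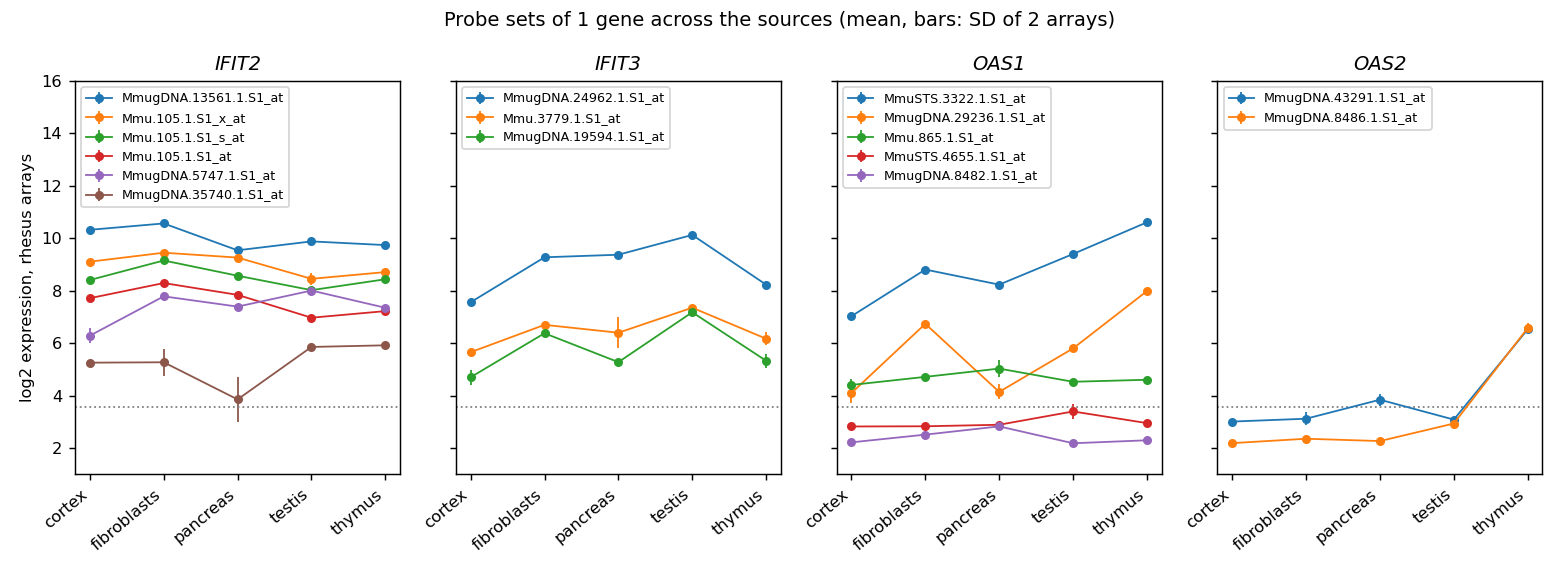
Source means of every rhesus probe set of IFIT2, IFIT3, OAS1 and OAS2 (log2 expression, vertical axis), with bars at the SD of 2 arrays and a dotted line at the control level of 3.56. All probe sets of IFIT3 are highest in testis and lowest in cortex, and both of OAS2 are highest in thymus. Those of IFIT2 cross, and 2 of the 5 OAS1 probe sets stay below the control level.

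The dimmer human probe sets read at or below the control level in every source for IFIT2, IFIT3, OAS1 and IFI44, as did all 3 of OAS2. The dimmer IFI44 probe set had source means from 2.62 to 2.75. An OAS2 probe set read 2.49 and 2.86 in thymus and between 2.09 and 2.15 on every other array, and its step of thymus over pancreas was 0.52 ± 0.11 (SE, limma adjusted p = 0.0096), below the size limit and under the control level.

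Other genes of the pathway were read from lists by role, of which 69 genes were measured by rhesus arrays and 108 by human arrays. The shares beside their counts are those of all genes in the same comparison. In cortex 4 were called higher and 31 lower on the rhesus arrays, that is 44.9% lower against 21.1% of all genes. The human arrays had 1 higher and 25 lower, 23.1% against 9.99%. In thymus the rhesus arrays had 29 higher and 2 lower (42% higher against 16.7%), and 26 higher and 1 lower on the human arrays (24.1% against 9.65%). Fibroblasts had 22 higher and 14 lower on the rhesus arrays (31.9% and 20.3%, against 18% and 14.9% of all genes) and 14 and 6 on human arrays (13% and 5.56%, against 11.3% and 8.1%). Testis had 13 and 8 on the rhesus arrays (18.8% and 11.6%, against 16.1% and 11.2%) and 14 and 4 on human arrays (13% and 3.7%, against 8.67% and 5.63%). Pancreas had 5 and 16 on the rhesus arrays (7.25% and 23.2%, against 9.81% and 23.8%) and 4 and 11 on human arrays (3.7% and 10.2%, against 5.01% and 15.7%). The rhesus shares in testis and pancreas were near those of all genes. On both types 67 of the pathway genes were read. Leaving out calls made on only 1 type, 62 combinations of gene and source were called in the same direction and 1 in opposite directions.

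That one was IRF8, a transcription factor of myeloid and lymphoid cells, in thymus. Its difference there was -2.16 on the rhesus arrays, where the mean of the other sources held a cortex level of 11.2, and 1.04 on the human arrays, where cortex read 2.90. Whether both probe sets annotated as IRF8 read its transcript was not tested, and the values are those of the probe sets. The interferon ligands were near the control level. None of the 5 with a rhesus probe set and none of the 18 with a human one was called in any source by limma. Ligand means ran from 2.34 to 3.84 on the rhesus arrays, with IFNG and IFNK above the control level in 1 or more sources, and from 2.08 to 3.05 on the human arrays.

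Of the receptors, IL10RB, a shared receptor chain for lambda interferons and interleukins, was higher in thymus by 2.74 on rhesus and 1.19 on human arrays. IFNAR2, a chain of the type I receptor, was higher in fibroblasts (2.97) and thymus (1.17) and lower in cortex (-3.42) on the rhesus arrays, and its human source means lay between 4.08 and 4.28 with none called. Of the signal transducers, only the kinase JAK2 was called in the same direction on both types, higher in testis by 1.11 and 1.56. The regulatory factor IRF3, which acts downstream of the sensors, was higher in fibroblasts by 1.59 and 1.77 and lower in cortex (-2.04 and -1.97) on the rhesus and human arrays. IRF1 (2.82 and 1.30) and IRF2 (1.72 and 1.97) were higher in thymus on both.

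Among the sensors of nucleic acid, STING1, the adaptor of cytosolic DNA sensing, was 4.61 higher in fibroblasts on rhesus and 4.86 higher on human arrays, with mean levels of 9.17 and 8.41. IFIH1, a sensor of long double-stranded RNA, was higher in pancreas by 1.85 and 2.28 and in thymus by 1.29 and 1.25, and it was lower in cortex (-2.93 and -3.22). MAVS, the mitochondrial adaptor of RNA sensing, was higher in pancreas by 1.71 and 1.07. These values are for the rhesus and then the human arrays.

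The largest list held other antiviral effectors, with 20 genes measured on rhesus and 35 on human arrays. In cortex the rhesus arrays had 2 higher and 15 lower, with 0 and 12 for human arrays. In testis 10 were higher and 1 lower on the rhesus and 7 and 0 on the human arrays, and in thymus 13 and 1 on the rhesus and 10 and 0 on the human arrays. Fibroblasts had 8 higher and 5 lower on the rhesus and 7 and 1 on the human arrays, and pancreas 1 and 7 on the rhesus and 0 and 2 on the human arrays. Of all genes, 21.1% were lower in cortex, 16.1% higher in testis and 16.7% higher in thymus with rhesus arrays, and 9.99%, 8.67% and 9.65% with human arrays. In fibroblasts 18% and 11.3% of all genes were higher, and in pancreas 23.8% and 15.7% were lower, with rhesus and with human arrays. IFI27, an interferon-induced mitochondrial protein, had mean levels of 12.6 on rhesus and 9.12 on human arrays in testis, 6.12 and 4.93 above the other sources, and was also higher in thymus by 2.76 and 1.67. IFI16, a nuclear DNA sensor, was higher in thymus by 3.45 and 2.47 and lower in cortex (-4.96 and -2.78). TRIM5, a restriction factor of retroviruses, was higher in fibroblasts by 2.62 and 1.52 and in thymus by 1.43 and 1.39, and lower in cortex (-3.58 and -2.92). TRIM25, a ubiquitin ligase that acts on RNA sensing, was higher in testis by 1.63 and 1.22 and in thymus by 1.31 and 1.38, and lower in cortex (-2.92 and -2.67).

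**Figure D4:**
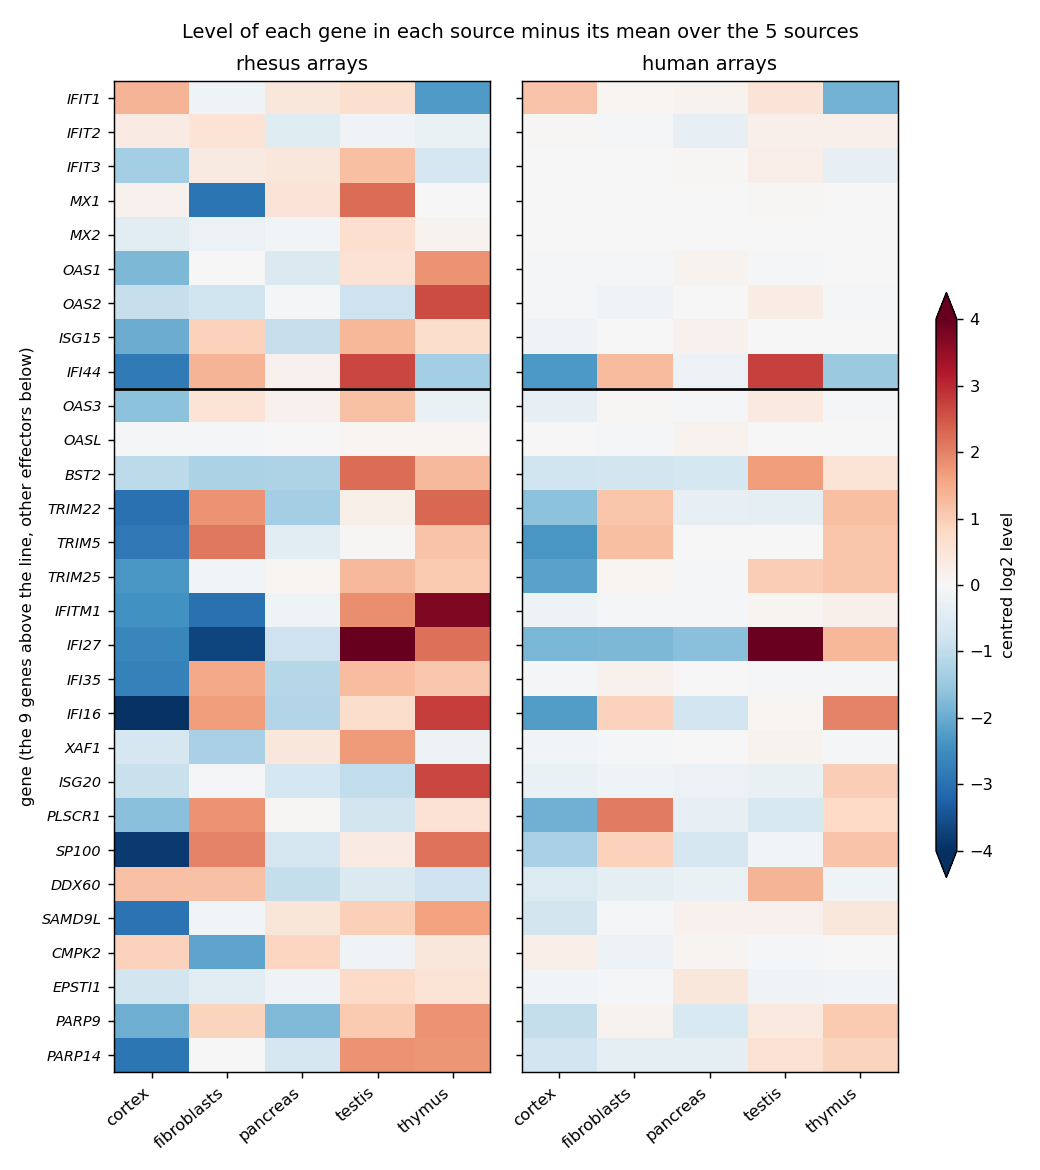
Level of each gene in each source minus its mean over the 5 sources (log2, colour, cut at -4 and 4) for rhesus arrays (left) and human arrays (right), with the 9 genes above the black line and 20 other effectors below it. Cortex is below the gene's mean for most of the effectors on both array types, and among the 9 genes only IFIT1 and IFI44 have strong colour on the human arrays.

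OAS3, the neighbour of OAS1, was higher in testis by 1.46 and lower in cortex (-2.03) on the rhesus arrays, with no call in thymus (-0.33), where OAS1 and OAS2 were highest. Its human source means lay between 4.36 and 5.07, and none was called. OAS3 was named for its place in the gene cluster after its values were seen.

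The enzymes that attach or remove ISG15 were few, with 3 genes measured on rhesus and 4 on human arrays. HERC6, a ligase of the family that attaches ISG15, was higher in testis by 4.13 on rhesus and 2.49 on human arrays, and lower in fibroblasts (-2.15 and -1.23). UBE2L6, the conjugating enzyme for ISG15, was higher in thymus by 2.94 and 2.13 and lower in pancreas (-1.87 and -1.95).

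Of the genes known as targets of interferon gamma, 7 of 11 were higher in thymus and 0 lower by rhesus arrays, with 5 of 15 and 0 for human arrays. In cortex the rhesus arrays had 0 higher and 7 lower, with 0 and 5 for human arrays. Fibroblasts had 5 higher and 2 lower on the rhesus and 2 and 1 on the human arrays. Pancreas had 1 and 3 on the rhesus and 1 and 2 on the human arrays, and testis 0 and 3, then 1 and 1. The shares of all genes were 16.7% and 9.65% higher in thymus and 21.1% and 9.99% lower in cortex. They were 18% and 11.3% higher in fibroblasts, 23.8% and 15.7% lower in pancreas and 11.2% and 5.63% lower in testis. PSMB8, a subunit of the immunoproteasome, was higher in thymus by 4.61 and 4.33 and in fibroblasts by 1.345 and 1.19. It was lower in cortex and in pancreas on both types. TAP1, a peptide transporter for antigen presentation, was higher in thymus by 3.11 and 3.18. IDO1, an enzyme that breaks down tryptophan, was higher in pancreas by 2.50 and 2.29 and in thymus by 2.67 and 1.60. GBP1, a guanylate-binding protein, was lower in cortex (-3.65 and -1.10). Among negative regulators, the phosphatase PTPN6 was higher in thymus by 4.15 and 2.69, PIAS1 was lower in fibroblasts (-1.21 and -1.24), and PTPN11 was higher in fibroblasts by 1.00 and 1.16, the rhesus value lying at the size limit.

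The joint profile of the 9 genes, the mean of their centred levels, was highest in testis on both array types, at 0.93 on rhesus and 0.45 on human arrays. It was lowest in cortex on the rhesus arrays (-0.83) and in thymus on the human arrays (-0.41). The human profile rested mainly on IFI44 and IFIT1, whose centred levels were 2.75 and 0.53 in testis and -1.49 and -1.90 in thymus. Among 6187 other genes that varied by at least 1 on both types, the 5 most like it were FHOD1, DHX40, CLCN5, NOTCH2 and CROT. Likeness was the lower of the rhesus and human Pearson's r over 5 source means, and it was 0.91 for FHOD1, 0.89 for DHX40, 0.87 for CLCN5, 0.87 for NOTCH2 and 0.87 for CROT. These are the highest of 6187 values, each over 5 points, and they do not show a link to the 9 genes. FHOD1, a formin that acts on actin, had mean levels of 9.95 in testis and 4.06 in cortex on the rhesus arrays.

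The source labels were checked against markers. All 5 cortex markers, 5 pancreas markers, 5 testis markers and 4 thymus markers measured on the rhesus arrays were called higher in their own source, as were 4 of 6 fibroblast markers. On the human arrays these counts were 5 of 6 for cortex, 6 of 6 for pancreas, 4 of 6 for testis, 6 of 7 for thymus and 5 of 6 for fibroblasts. In thymus, where OAS1 and OAS2 were highest, 2 of 3 measured B cell markers were higher on either array type, with a summed level of 17.02 against 9.64 to 11.2 elsewhere on the rhesus arrays. Of 5 macrophage markers 2 were higher and 1 lower there on the rhesus arrays, with a summed level of 35.1 against 22.4 to 30.9. In testis 1 of these was higher and 0 lower, with a sum of 30.2, and the human arrays had 0 higher and 1 lower there. Testis also had 2 of 4 thymus, 2 of 4 endothelial and 2 of 6 fibroblast markers higher on the rhesus arrays. In each of these lists 1 was lower, and the summed levels were 24.0, 23.6 and 55.6. On human arrays 0 of 7, 1 of 4 and 4 of 6 were higher in testis, and 1, 0 and 1 lower. Pancreas had 4 of 4 endothelial markers higher on the rhesus arrays, with a summed level of 28.8. Of the plasmacytoid dendritic cell markers, 2 of 4 were higher in thymus on human arrays, and 0 of the 1 measured by rhesus arrays. The part of these cells in the levels was not tested. The difference between the 3' and 5' ends of actin transcripts, which grows as RNA breaks down, was 4.58 ± 0.44 in pancreas (SD, n = 2 arrays) against a mean of 2.38 elsewhere on the rhesus arrays, and 2.40 ± 0.43 against 2.21 on the human arrays. Its part in the pancreas values, ISG15 included, was not tested.

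For the probe sets of the 9 genes, the spread between human arrays of the same source was widest in testis. There 4 of the 15 probe sets differed by at least 0.5 between the arrays, against 4.44% of all probe sets. The largest of these gaps was that of IFIT1, 0.83, a size that 1.16% of all human probe sets reached in testis. Over all human probe sets the share that differed by at least 0.5 was highest in pancreas, at 9.37%. On the rhesus arrays the largest gap was 1.23, for an IFIT2 probe set in pancreas, where 14.3% of all probe sets differed by at least 0.5. Without replicate 4 of testis, the array with the lower value, the human IFIT1 difference in testis was 1.08 and was called, against 0.66 with both arrays. Without replicate 3 of testis, the rhesus minus human difference of IFIT3 in testis was 0.87, against 1.17, and was no longer called.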

How the data were processed

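Each array type has its own deposited table, in which the authors give log2 expression per probe set and array. RMA is the method listed by the submitters' notes on processing, with no version. The study's methods describe quantile normalization of probe intensities between replicate arrays. Whether the deposited tables were made in that way is not given in the sources used here. Values were used as deposited, and levels were not compared between array types. Rhesus and human arrays were fitted separately in R 4.3.3 with limma 3.58.1 over 52766 and 54613 probe sets that are not controls, with p-values adjusted over all of them. With 2 arrays per source, the spread was pooled over sources, and the number of arrays limits the precision.

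Gene symbols came from the array annotation. Of the 9 gene numbers, 8 were found in the RefSeq table, and IFI44 was matched by symbol. The genes and lists were chosen with earlier results of these data known. The text names every member, from each pathway list the up to 4 genes with the largest difference called in the same direction on both array types, genes behind small counts, and the 5 genes most like the members.

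In data simulated for testis against the other 4 sources, 84 of 100 probe sets changed by 1.5 and 97 of 100 changed by 3 were recovered on the rhesus arrays with 2 false calls, and 79 and 100 on the human arrays with 0 false calls. Only those probe sets were changed, and the sources otherwise shared the mean of each probe set, with independent normal noise. The real arrays have many more called probe sets and differences among the other sources, so these counts may not carry over. Alternatives were other normalizations, a filter on dim probe sets, no size limit, an unmoderated contrast, averaging the probe sets of a gene, the replicate number as a block and each array left out in turn.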

Additional observations from a re-analysis of the deposited data

Results flagged for a closer look

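For 5 of the 9 genes the difference of a source from the other 4 sources was not the same on the rhesus and the human arrays, by limma's test of that contrast over 11956 genes, with every value given as rhesus minus human on the log2 scale. The share of all genes with such a call in at least 1 source is not given here. By source, between 13.7% (testis) and 21.8% (pancreas) of all genes tested were called. In cortex the contrast was -2.30 for ISG15, -2.17 for OAS1, -1.67 for IFIT3 and -1.06 for OAS2. In fibroblasts it was -3.62 for MX1 and 1.16 for ISG15, and in pancreas it was -1.37 for ISG15. In testis it was 2.75 for MX1, 1.62 for ISG15, -1.40 for OAS2 and 1.17 for IFIT3. In thymus it was 3.35 for OAS2 and 2.24 for OAS1. When the probe sets of a gene were averaged, OAS1 in cortex (-0.97) and thymus (0.96) and OAS2 in testis (-0.77) were not called. IFI44 was then called in cortex, fibroblasts and testis. The human levels of MX1 and OAS2 were below those of the controls in every source, and those of IFIT3 and OAS1 were above them in 1 and 2 sources. ISG15 was above them in all 5 sources on the human arrays, with source means that spanned only 0.31. Whether this flat signal came from its transcript was not tested.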

How the results depend on the processing

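The replicate numbers of the labels did not pair the arrays, since deviations of same-numbered arrays correlated between -0.03 and 0.02 over all pairs of sources. With the replicate block, 0 of 90 gene calls changed, and 1 of 22 counts did, that of other pathway genes in fibroblasts on the human arrays (19, against 20). Subtracting array medians, the unmoderated contrast and the filter on dim probe sets, which removed MX1, MX2 and OAS2 on the human arrays, also changed no call of a gene that they kept. Averaging the probe sets of a gene left 0 genes called in fibroblasts and 1 in thymus on the human arrays, 1 contrast between array types in thymus, 8 rhesus and 1 human neighbouring steps, and 15 other pathway genes in thymus on the human arrays. IFI44 then differed between array types by 1.08 in testis, against -0.10, -1.42 in cortex, against -0.68, and 1.005 in fibroblasts, against 0.10. With no size limit the rhesus arrays called 9 genes in testis, 7 each in thymus and pancreas and 6 in fibroblasts, with 25 neighbouring steps, and the human arrays 4 in pancreas and 2 in testis. The array types then differed for 7 genes each in cortex and testis, 5 in pancreas, and 4 each in thymus and fibroblasts. Other pathway genes numbered 56 in cortex, 55 in pancreas, 49 in thymus and 48 in testis with rhesus arrays, and 60 in pancreas, 53 in testis, 45 in cortex, 41 in thymus and 36 in fibroblasts with human arrays. Shares of all genes called under this and the other settings of this section are not given here. The counts therefore cannot be read as particular to these genes. Subtracting the spiked controls shifted all pancreas differences by -1.10 on either array type and gave 5 rhesus genes in fibroblasts, 5 in pancreas and 6 human genes in pancreas, where IFIT3 (-1.03), MX1 (-1.08) and MX2 (-1.08) were then called lower, with 42 rhesus and 80 human pathway genes. Quantile normalization gave 3 rhesus genes in pancreas, all higher (IFIT1 1.23, IFIT3 1.13 and MX1 1.20), against 1 lower as reported (ISG15, then -0.95), and 3 contrasts between array types there. Leaving out both pancreas arrays was chosen after the data were seen, and it moved 3 of 72 gene values across the limit, with ISG15 in fibroblasts (0.91) lost and IFIT1 in testis (1.001) and OAS2 in fibroblasts (-1.09) gained. Leaving out each array in turn gave 1 to 2 human genes in testis, 4 to 5 rhesus genes in testis, 3 to 4 rhesus genes in fibroblasts and, between array types, 2 to 3 contrasts in fibroblasts and 3 to 4 in cortex and in testis. IFIT1 in testis on the human arrays was called without replicate 4 of testis (1.08), and the contrast of IFIT3 in testis was lost without replicate 3 of testis (0.87). The contrast of OAS2 in cortex was lost without replicate 4 of testis (-0.998), and MX2 in testis was called without replicate 2 of testis (1.01). OAS2 in fibroblasts (-0.997) was called at -1.17 to -1.003 when replicate 2 of thymus, testis or pancreas or replicate 1 of fibroblasts or cortex was left out. The causes of these changes were not tested. Levels near those of the controls limit what the human arrays can show for MX1, MX2, OAS1, OAS2 and IFIT3.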
